A study of Mus musculus with 16 samples.

Results

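The genes described here sense bacterial endotoxin (lipopolysaccharide) or restrain the NF-kB response that follows. They are Lbp and Cd14, which carry and present endotoxin, the receptor genes Tlr4, Ly96 and Tlr2, the adaptor gene Myd88, the NF-kB gene Nfkb1, and the feedback genes Nfkbia, Nfkbiz and Tnfaip3. These 10 genes were taken by symbol from the 24411 genes counted in each library, and all 10 were among the 12901 genes with enough reads to be tested. Polyadenylated RNA of mouse liver was sequenced in 4 groups of 4 libraries. The EtOH+MBV group received an ethanol diet and MBV, the EtOH group the same diet and vehicle, the PF+MBV group a pair-fed control diet and MBV, and the PF group the control diet and vehicle. The ethanol diet followed the NIAAA model, in which chronic feeding is joined with a binge. MBV are matrix-bound nanovesicles, small vesicles held in the extracellular matrix. No strain, sex or age of the mice and no source or dose of the vesicles is given in the sources used here. Nor do the labels say that the 4 libraries of a group come from separate mice. The p-values set group differences against the spread between these libraries, which may not be the spread between mice.

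Endotoxin that leaves the gut reaches the liver through the portal blood. LBP, a plasma protein made by hepatocytes, passes it to CD14, and CD14 hands it to the complex of TLR4 and the Ly96 protein on Kupffer cells and other liver cells. TLR2 binds bacterial lipoproteins instead. Both receptors signal through MYD88 to the IKK kinases, which release NF-kB from its inhibitor, the Nfkbia product. NF-kB then switches on genes that end its own activity, among them Nfkbia itself and Tnfaip3, a ubiquitin-editing enzyme. The Nfkbiz product is a nuclear member of the inhibitor family that also helps to switch on secondary inflammatory genes.

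The libraries held 15271344 to 20493181 counts in genes. Hepatocyte markers summed to 97100 to 161000 CPM (counts scaled to a common library total, with TMM factors of 0.863 to 1.269) in every library, with Alb at 62500 CPM or more and Hnf4a at 662 CPM or more, in keeping with the liver label. The labels' replicate numbers name the libraries. A pair of libraries stood apart. In a principal component analysis EtOH 1 lay alone at -74.2 on the second axis (15.6% of variance), and it had the largest TMM factor. EtOH+MBV 1 lay at -0.3 on the first axis (49.8%). The other ethanol-diet libraries lay there at 38.6 to 54.9, and the control-diet libraries at -48.4 to -32.9. Changes are log2 fold changes ± SE from edgeR's quasi-likelihood test on all 16 libraries, adjusted by Benjamini-Hochberg over the 12901 genes, and a gene is called when the adjusted p is under 0.05.

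The ethanol diet was compared with the control diet in vehicle-treated mice. Endotoxin carriers and feedback genes rose, and the receptors and the adaptor did not pass the test. The 6 genes called, all higher in EtOH, were Cd14, Tnfaip3, Nfkbiz, Lbp, Nfkbia and Nfkb1. Over all tested genes 20.4% were called higher, 19.5% lower and 39.8% in either direction, so calls were common. The median change of the 10 genes was 0.61, against 0.01 over all tested genes. The 6 called genes were also those whose EtOH and PF libraries did not overlap, a separation seen in 32.3% of all tested genes. Each of the 6 calls held when any 1 library of either group was left out. In bulk tissue a change in the number of cells of a type and a change in RNA per cell cannot be told apart.

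**Figure D1:**
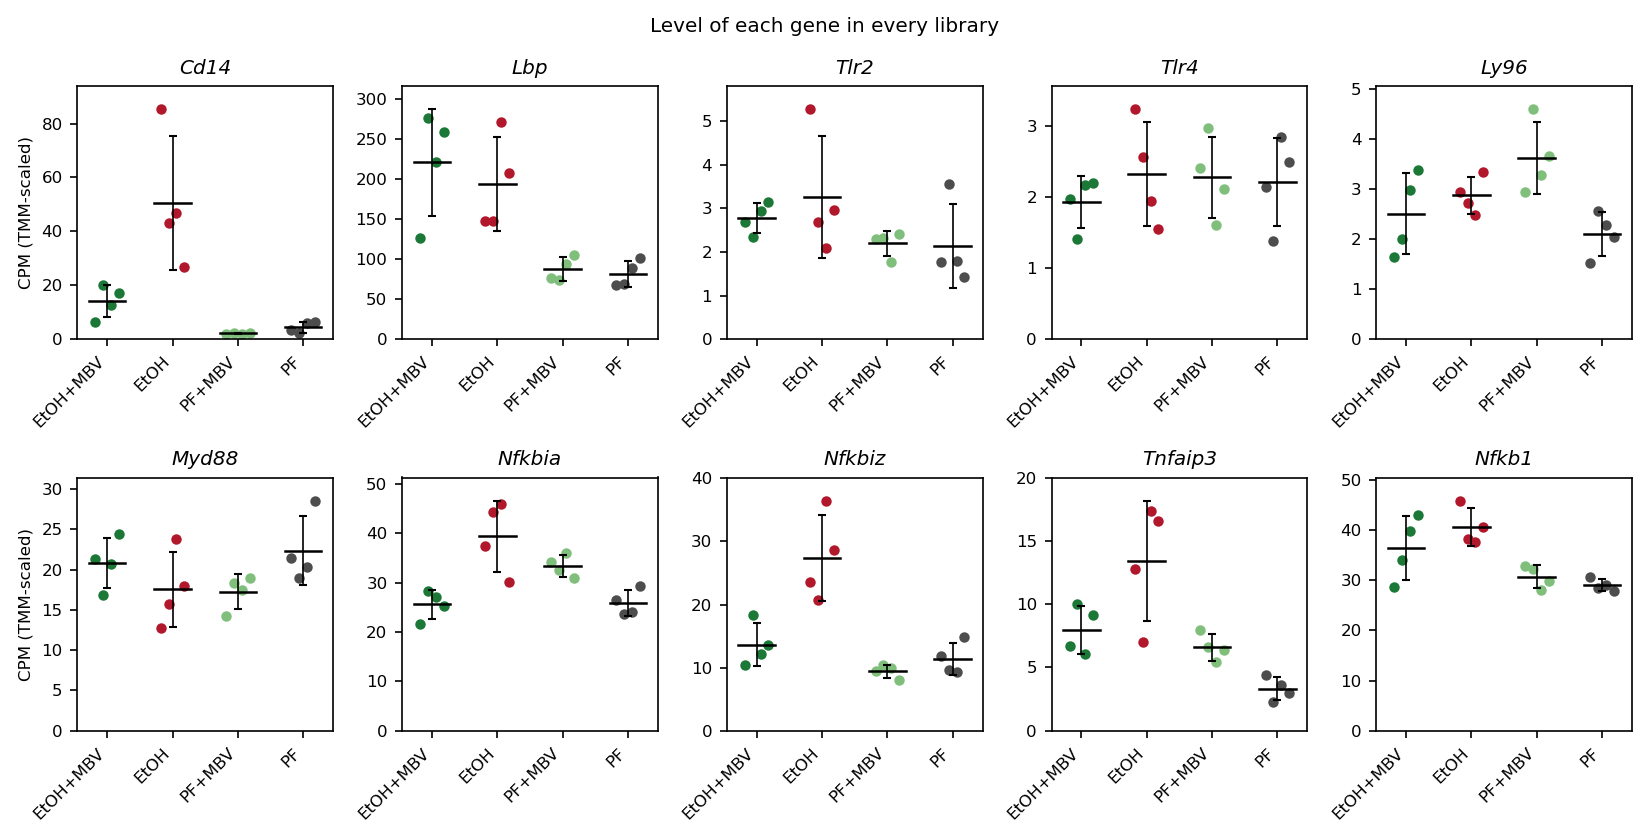
Level of each of the 10 genes in every library, in TMM-scaled CPM, with 1 point per library, horizontal bars for group means and whiskers for the SD (n = 4). Cd14 lies at 6.47 to 20 CPM in EtOH+MBV, above all control-diet livers and below the EtOH livers, whose lowest value is 26.6 CPM. Tlr4 stays between 1.38 and 3.24 CPM in all groups.

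Cd14 encodes the co-receptor that presents endotoxin to TLR4 and lies on chromosome 18 (GRCm38, 36725067 to 36726798, minus strand). It stood at 6.47, 20, 12.5 and 17.2 CPM in EtOH+MBV livers, at 85.4, 43.1, 46.9 and 26.6 CPM in EtOH livers, at 1.88, 2.16, 2.08 and 2.46 CPM in PF+MBV livers and at 3.24, 2.19, 6.03 and 6.28 CPM in PF livers. The EtOH livers were highest without overlap, the EtOH+MBV livers came next, and the control-diet libraries all lay lowest. EtOH 1 held the highest value, and EtOH+MBV 1 the lowest of its group. In EtOH against PF Cd14 rose by 3.50 ± 0.40, or 11.3-fold (adjusted p = 9.7e-06), the largest change among the 10 genes. Without EtOH 1 the change was 3.12.

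Lbp encodes the plasma carrier and lies on chromosome 2 (GRCm38, 158306493 to 158332852, plus strand). It stood at 127, 277, 221 and 259 CPM in EtOH+MBV livers, at 148, 148, 272 and 208 CPM in EtOH livers, at 77.0, 73.4, 94.1 and 105 CPM in PF+MBV livers and at 67.2, 68.7, 89.1 and 101 CPM in PF livers. Levels split by diet, with every ethanol-diet library above every control-diet one, while MBV and vehicle libraries of a diet overlapped. Lbp rose by 1.25 ± 0.24, or 2.38-fold, in EtOH against PF (adjusted p = 0.000783).

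The receptor genes were scarce. Tlr4, the endotoxin receptor, averaged 1.94 ± 0.367 CPM in EtOH+MBV, 2.32 ± 0.74 in EtOH, 2.28 ± 0.568 in PF+MBV and 2.21 ± 0.625 in PF (SD, n = 4 each), from 21 to 67 counts per library. All 4 groups overlapped. In EtOH against PF its change was 0.08 ± 0.28, with a 95% interval of -0.52 to 0.67, so changes of either sign remain compatible with the data. Ly96, the TLR4 partner that binds the lipid of endotoxin, averaged 2.51 ± 0.819 CPM in EtOH+MBV, 2.88 ± 0.369 in EtOH, 3.62 ± 0.715 in PF+MBV and 2.11 ± 0.442 in PF. Its change in EtOH against PF was 0.45 ± 0.25 (adjusted p = 0.161, interval -0.08 to 0.97). Tlr2 averaged 2.78 ± 0.342 CPM in EtOH+MBV, 3.25 ± 1.4 in EtOH, 2.2 ± 0.29 in PF+MBV and 2.14 ± 0.967 in PF. Its change of 0.61 ± 0.30 in EtOH against PF missed the limit (adjusted p = 0.118). A single library in each group moved this value. EtOH 1 held 5.28 CPM, where the rest of its group ran from 2.08 to 2.97 CPM, and the change without it was 0.27 (adjusted p = 0.458). PF 2 held 3.57 CPM against 1.43 to 1.79 CPM in the other PF libraries, and without it the change was 0.97 (adjusted p = 0.0166).

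Myd88, the adaptor shared by most Toll-like receptors, averaged 20.8 ± 3.11 CPM in EtOH+MBV, 17.6 ± 4.66 in EtOH, 17.3 ± 2.13 in PF+MBV and 22.4 ± 4.28 in PF. Its change in EtOH against PF was -0.35 ± 0.18 (adjusted p = 0.127), and -0.54 (adjusted p = 0.0203) without EtOH 3. The gene (chromosome 9, GRCm38, 119335934 to 119341411) overlaps Acaa1a on the opposite strand and Slc22a14 on its own strand, and the counts used carry no strand. How far reads from the shared stretches entered the Myd88 count, or were left out as ambiguous, was not tested.

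Nfkb1 encodes an NF-kB subunit in precursor form. It stood at 28.6, 34.0, 39.9 and 43.0 CPM in EtOH+MBV livers, at 45.9, 38.2, 37.7 and 40.6 CPM in EtOH livers, at 32.8, 32.3, 28 and 29.8 CPM in PF+MBV livers and at 30.6, 28.4, 29.1 and 27.8 CPM in PF livers. The EtOH livers lay above both control-diet groups, and the EtOH+MBV livers spread from the control-diet levels to those of EtOH. It rose by 0.49 ± 0.11, or 1.4-fold, in EtOH against PF (adjusted p = 0.00323), the smallest of the 6 called changes.

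Nfkbia, the inhibitor that holds NF-kB in the cytoplasm, stood at 21.7, 28.3, 27.2 and 25.3 CPM in EtOH+MBV livers, at 37.4, 44.3, 46.0 and 30.2 CPM in EtOH livers, at 34.2, 32.5, 36.0 and 30.9 CPM in PF+MBV livers and at 26.5, 23.7, 24.0 and 29.3 CPM in PF livers. MBV libraries thus lay below vehicle libraries on the ethanol diet and above them on the control diet, in each case without overlap. In EtOH against PF it rose by 0.61 ± 0.13, or 1.53-fold (adjusted p = 0.00138).

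Nfkbiz stood at 10.4, 18.4, 12.2 and 13.6 CPM in EtOH+MBV livers, at 23.6, 20.8, 36.5 and 28.6 CPM in EtOH livers, at 9.46, 10.4, 9.89 and 8.02 CPM in PF+MBV livers and at 11.9, 9.58, 9.27 and 14.8 CPM in PF livers. The EtOH livers stood clear of the other 3 groups. It rose by 1.27 ± 0.20, or 2.4-fold, in EtOH against PF (adjusted p = 0.00017).

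Tnfaip3 stood at 6.69, 9.98, 6.05 and 9.11 CPM in EtOH+MBV livers, at 12.8, 6.98, 17.4 and 16.6 CPM in EtOH livers, at 7.99, 6.60, 5.41 and 6.36 CPM in PF+MBV livers and at 4.40, 2.26, 3.64 and 2.98 CPM in PF livers. Here the PF livers stood clear, below every library of the other 3 groups, and EtOH 2 lay within the range of the MBV libraries. Tnfaip3 rose by 2.01 ± 0.27, or 4.03-fold, in EtOH against PF (adjusted p = 4.33e-05).

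Promoter sequence was at hand for 4 of the 10 genes (Tlr2, Myd88, Nfkbia and Tnfaip3), as 5 windows of 250 bases before a RefSeq start on GRCm38.p6. Windows of 3 genes hold a match to the kappa B consensus, the motif that NF-kB binds, searched on both strands. A match stands in 3.9% of all 32851 such windows, and in at least 1 window of 4.46% of 27025 genes. No sequence was at hand for the other genes of the 10, Cd14 and Nfkbiz among them. A link between the motif and the response to MBV was not tested. The 3 stretches with a match are shown. Each is written 5′ to 3′ on the gene's strand, with the matches in capitals, and bases inside annotated exons are left out.
Tlr2 (chr3:83841768-83841858, minus strand): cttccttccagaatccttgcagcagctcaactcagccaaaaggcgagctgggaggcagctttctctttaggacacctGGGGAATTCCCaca
Nfkbia (chr12:55492648-55492897, minus strand): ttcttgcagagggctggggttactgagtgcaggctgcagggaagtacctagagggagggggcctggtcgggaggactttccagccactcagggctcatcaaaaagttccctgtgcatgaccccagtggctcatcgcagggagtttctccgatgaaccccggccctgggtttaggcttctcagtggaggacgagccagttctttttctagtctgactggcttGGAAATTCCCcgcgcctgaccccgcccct
Tnfaip3 (chr10:19015411-19015547, minus strand): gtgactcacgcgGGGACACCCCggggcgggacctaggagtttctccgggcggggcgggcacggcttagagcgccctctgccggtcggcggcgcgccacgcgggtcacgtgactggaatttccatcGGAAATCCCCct
The Tlr2 capitals join 2 overlapping matches, 1 of which reads the same on both strands. In Nfkbia the match is on the opposite strand, where it reads GGGAATTTCC, 29 to 20 bases before the start. Tnfaip3 has a match 125 to 116 bases before the start and another on the opposite strand, read there as GGGGATTTCC, 12 to 3 bases before it. The Myd88 window and the window at the second Tnfaip3 start held no match to the consensus. These are matches of letters, and binding was not measured.

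MBV was compared with vehicle on the ethanol diet. Cd14, Nfkbiz and Nfkbia fell, while Lbp, the receptors, Myd88, Nfkb1 and Tnfaip3 did not pass the test. These 3 of the 10 genes were called lower and none higher, where 1.45% of all tested genes were called lower, 1.24% higher and 2.69% in either direction. They were also the 3 genes without overlap, which held for 7.6% of all tested genes. The median change of the 10 was -0.25, against 0.01 over all tested genes. This comparison shares the EtOH libraries with that of EtOH against PF, so a library high or low in EtOH moves both.

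Cd14 fell by 1.85 ± 0.36 on the log2 scale in EtOH+MBV against EtOH and was 3.61-fold lower (adjusted p = 0.0208). It averaged 14 ± 5.9 CPM in EtOH+MBV and 50.5 ± 24.9 CPM in EtOH (SD, n = 4 each). Without EtOH 1 the change was -1.46 (adjusted p = 0.0492), and without both EtOH 1 and EtOH+MBV 1 it was -1.23 (adjusted p = 0.0439). Nfkbiz fell by 1.01 ± 0.20 and was 2.01-fold lower (adjusted p = 0.021), at 13.6 ± 3.43 CPM in EtOH+MBV and 27.4 ± 6.9 CPM in EtOH. Nfkbia fell by 0.62 ± 0.13 and was 1.54-fold lower (adjusted p = 0.022), at 25.6 ± 2.88 CPM in EtOH+MBV and 39.5 ± 7.19 CPM in EtOH. In each of the 3 genes all EtOH+MBV livers lay below all EtOH livers.

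The 3 calls did not hold in every fit. All were lost without EtOH+MBV 3 (adjusted p of 0.0839 to 0.0873) and in a fit of only the 8 libraries compared (0.227 to 0.232), and that of Nfkbia was also lost without EtOH 2 (0.0592) and without both EtOH 1 and EtOH+MBV 1 (0.0502). The changes themselves kept their sign in each of these fits. Tnfaip3 stood at -0.76 ± 0.26 (adjusted p = 0.109, 95% interval -1.3 to -0.21), with EtOH 2 inside the EtOH+MBV range. Lbp stood at 0.19 ± 0.24 (adjusted p = 0.693, interval -0.31 to 0.69) and Nfkb1 at -0.16 ± 0.11 (adjusted p = 0.451). Tlr2, Tlr4 and Ly96 stood at -0.24 ± 0.30, -0.27 ± 0.29 and -0.20 ± 0.25, and Myd88 at 0.25 ± 0.18, none of them called.

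**Figure D2:**
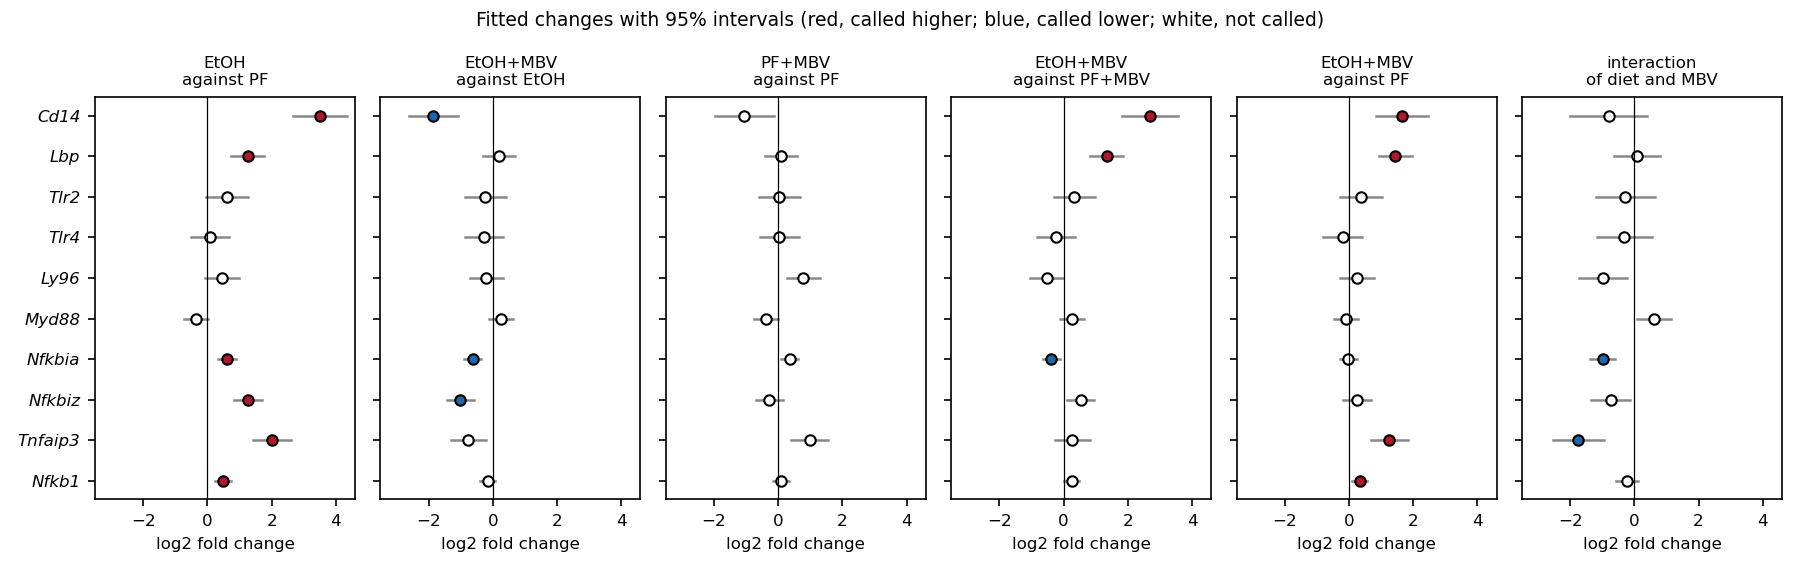
Fitted log2 fold change of each gene in the diet and MBV comparisons, and in their interaction, 1 panel each. Points are estimates (red called higher, blue called lower, white not called) and lines are 95% intervals. Cd14 is at 3.50 in EtOH against PF and at -1.85 in EtOH+MBV against EtOH, while Lbp is at 1.25 and 0.19 there.

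Summed macrophage markers were highest in EtOH 1, the library with the most Cd14. The 12 Kupffer cell markers summed to 272 to 385 CPM in EtOH+MBV, 251 to 654 in EtOH, 351 to 423 in PF+MBV and 346 to 445 in PF. None of the 12 was called in EtOH+MBV against EtOH (median change -0.31). In EtOH against PF 1 was higher (Marco 2.76 ± 0.68) and 2 were lower (Folr2 -0.78 ± 0.23 and Cd163 -0.53 ± 0.19), named after their values were seen. The 12 monocyte and recruited macrophage markers summed to 53 to 79.7 CPM in EtOH+MBV, 59.9 to 180 in EtOH, 91.8 to 99.6 in PF+MBV and 83 to 115 in PF, and none of the 11 tested was called in EtOH+MBV against EtOH (median change -0.85). In EtOH against PF 3 of these 11 were higher (Gpnmb 4.59 ± 0.99, Itgam 1.00 ± 0.33 and Cd68 0.71 ± 0.26) and 2 lower (Ccr2 -2.01 ± 0.31 and Cx3cr1 -2.57 ± 0.58), named after their values were seen. EtOH 1 held 654 CPM of Kupffer and 180 CPM of monocyte markers, beside 85.4 CPM of Cd14. The other 3 EtOH livers, at 251 to 314 CPM of Kupffer markers, lay within or below the EtOH+MBV range of that sum. Of monocyte markers EtOH 2 held 83.5 CPM, above the EtOH+MBV range, and EtOH 3 and EtOH 4 held 76.8 and 59.9 CPM, within it. The Cd14 of these 3 livers, 26.6 to 46.9 CPM, lay above every EtOH+MBV library. Clec4f, which defines Kupffer cells, averaged 80 ± 10.3 CPM in EtOH+MBV, 93.8 ± 30.4 in EtOH, 110 ± 6.35 in PF+MBV and 115 ± 11.3 in PF. Timd4, the other defining Kupffer marker, averaged 5.31 ± 1.66 CPM in EtOH+MBV, 6.31 ± 1.5 in EtOH, 6.8 ± 0.375 in PF+MBV and 6.42 ± 1.49 in PF. Neutrophil markers summed to at most 11.4 CPM in any library, S100a8 was at 0 in 1 PF library, and none of the 4 tested was called in either comparison. No defining marker other than S100a8 was at 0 in any library. Endothelial markers summed to 360 to 450 CPM in EtOH+MBV and 362 to 430 in EtOH, against 485 to 537 in PF+MBV and 469 to 522 in PF, and 6 of 10 were lower and 2 higher in EtOH against PF. Of the 10 stellate cell markers 5 were higher and 2 lower in EtOH against PF. Of the 11 hepatocyte markers tested 2 were higher there, and no marker of the 6 lists was called in EtOH+MBV against EtOH. Over all tested genes 20.4% were called higher and 19.5% lower in EtOH against PF. In EtOH+MBV against EtOH 2.69% were called in either direction. The part of these cell types in the changes of the 10 genes was not tested.

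MBV was also compared with vehicle on the control diet. None of the 10 genes was called by edgeR, where 0.752% of all tested genes were called higher, 1.03% lower and 1.78% in either direction. An unadjusted p under 0.05 was found for 4 of the 10 (Tnfaip3, Ly96, Nfkbia and Cd14) and for 2181 of all tested genes. In 4 of the 10, Tnfaip3, Ly96, Nfkbia and Myd88, the libraries nonetheless did not overlap, which held for 15% of all tested genes. Tnfaip3 averaged 6.59 ± 1.07 CPM in PF+MBV and 3.32 ± 0.916 CPM in PF, a change of 0.98 ± 0.27 or 1.98-fold (adjusted p = 0.0773). Ly96 stood at 0.78 ± 0.25 (adjusted p = 0.112), Nfkbia at 0.37 ± 0.13 (adjusted p = 0.14) and Myd88 at -0.37 ± 0.18 (adjusted p = 0.305). Cd14 stood at -1.05 ± 0.43 (adjusted p = 0.222), with PF 2 at 2.19 CPM inside the PF+MBV range of 1.88 to 2.46 CPM.

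The calls differed between fits. Spread within groups was also unequal. Between any 2 libraries of a group, the chi-square per degree of freedom was 16.4 to 104 in EtOH+MBV and 25.6 to 156 in EtOH. It was 8.29 to 15.4 in PF+MBV and 14.1 to 59.2 in PF. The part of this spread in the calls was not tested. In a fit of the 8 control-diet libraries alone, Tnfaip3 (adjusted p = 0.0173), Nfkbia (0.0302) and Ly96 (0.0466) were called higher in PF+MBV. DESeq2 on all libraries called Tnfaip3 (0.0193), and leaving out EtOH 1 and EtOH+MBV 1 gave calls for Tnfaip3 (0.0443), Ly96 (0.0425) and, lower, Cd14 (0.0487).

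Whether MBV acted differently on the 2 diets was tested by the interaction of diet and MBV, the MBV change on the ethanol diet minus that on the control diet. It was called for 2 of the 10 genes, Nfkbia and Tnfaip3, both negative, where 2.09% of all tested genes were called negative, 2.02% positive and 4.11% in either direction. For Nfkbia the MBV change was -0.62 on the ethanol diet and 0.37 on the control diet, an interaction of -0.99 ± 0.18 (adjusted p = 0.0137). It was called with any 1 library left out (highest adjusted p 0.0377). For Tnfaip3 the MBV change was -0.76 on the ethanol diet and 0.98 on the control diet, an interaction of -1.74 ± 0.38 (adjusted p = 0.0218). Its call was lost without EtOH+MBV 3 (adjusted p = 0.0515). Cd14 had an interaction of -0.80 ± 0.56 (adjusted p = 0.417, 95% interval -1.99 to 0.39), and of -0.41 without EtOH 1. Ly96 had -0.98 ± 0.35 (adjusted p = 0.109), Nfkbiz -0.74 ± 0.28 (adjusted p = 0.136) and Myd88 0.62 ± 0.25 (adjusted p = 0.157, and 0.049 without EtOH 3).

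**Figure D3:**
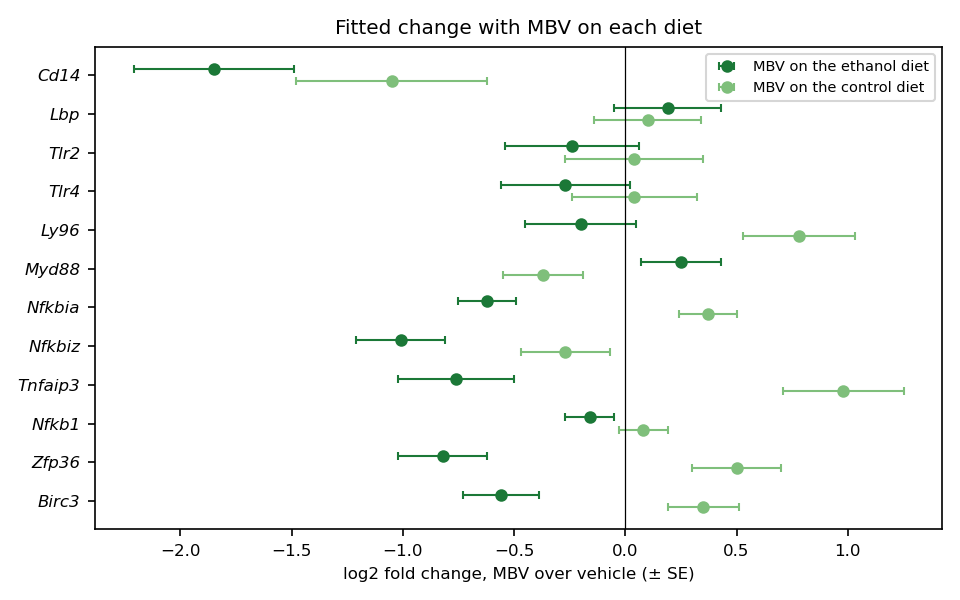
Fitted log2 fold change of MBV over vehicle (± SE) on the ethanol diet (dark green) and the control diet (light green), for the 10 genes and for Zfp36 and Birc3, which were added after their interaction was seen. Nfkbia and Tnfaip3 lie left of 0 on the ethanol diet (-0.62 and -0.76) and right of it on the control diet (0.37 and 0.98), while Cd14 lies left on both (-1.85 and -1.05).

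Among MBV-treated mice Cd14 and Lbp were higher on the ethanol diet and Nfkbia was lower. These 3 of the 10 were called, where 19.2% of all tested genes were called higher in EtOH+MBV than in PF+MBV, 16.7% lower and 35.9% in either direction. Cd14 was 2.70 ± 0.42 higher (6.5-fold, adjusted p = 0.000193) and Lbp 1.34 ± 0.24 higher (2.53-fold, adjusted p = 0.000621). Nfkbia fell by 0.38 ± 0.13 on the log2 scale (adjusted p = 0.0265), averaging 25.6 ± 2.88 CPM in EtOH+MBV and 33.4 ± 2.18 CPM in PF+MBV. Its call was lost without EtOH+MBV 1, EtOH+MBV 4, PF+MBV 1 or PF+MBV 3 (adjusted p of 0.0583 to 0.0795). Nfkbiz, whose libraries did not overlap, missed the limit at 0.53 ± 0.20 (adjusted p = 0.0526). It was called without EtOH+MBV 1 (0.0223), by DESeq2 (0.0437) and in the 8 libraries alone (0.0298). Nfkb1 stood at 0.25 ± 0.11 (adjusted p = 0.103), and at 0.35 (0.0124) without EtOH+MBV 1. In all, 4 of the 10 genes did not overlap, against 39% of all tested genes.

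The EtOH+MBV livers were set against PF livers to see how far each gene remained from the untreated control. Called higher were 4 of the 10 genes, where 15.5% of all tested genes were called higher, 13.7% lower and 29.2% in either direction, and 3 of the 10 did not overlap, against 27.6% of all. Lbp was 1.44 ± 0.24 higher (2.71-fold, adjusted p = 0.000494), Cd14 1.65 ± 0.39 higher (3.14-fold, adjusted p = 0.00498) and Tnfaip3 1.25 ± 0.27 higher (2.39-fold, adjusted p = 0.00311). Nfkb1 was 0.33 ± 0.11 higher (adjusted p = 0.04), with overlapping libraries, and leaving out any 1 library except EtOH+MBV 1 ended that call (adjusted p of 0.0505 to 0.15). The other 6 were not called. Nfkbia differed by -0.02 ± 0.13 (95% interval -0.28 to 0.25) and Nfkbiz by 0.26 ± 0.20 (interval -0.17 to 0.69). The PF libraries are shared with the comparison of EtOH against PF, and the EtOH+MBV libraries with that of EtOH+MBV against EtOH.

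The count ratio of co-receptor to receptor within a library does not depend on the scaling between libraries. The Cd14 to Tlr4 ratio was 3.25, 13.9, 5.72 and 7.73 in EtOH+MBV, 26.2, 16.7, 23.7 and 16.8 in EtOH, 0.783, 0.73, 1.29 and 1.16 in PF+MBV and 1.51, 1.58, 2.11 and 2.51 in PF. The 4 groups occupied separate ranges, though PF and PF+MBV did not separate by Cd14 alone. PF 2, at 2.19 CPM of Cd14, lay inside the PF+MBV range of that gene, and its 22 counts of Tlr4 were the fewest in PF. In log2 units the ratio was 3.44 higher in EtOH than in PF, 2.80 higher in EtOH+MBV than in PF+MBV, and changed by -1.61 in EtOH+MBV against EtOH and by -0.97 in PF+MBV against PF. By exact permutation, 2-sided, each of these 4 differences had p = 0.0286, which is the smallest value that 4 against 4 libraries allow, and an adjusted p of 0.0458 over the 8 ratio tests. Leaving out any EtOH library (differences of -1.71 to -1.49) gave an exact permutation p of 0.0571 in EtOH+MBV against EtOH, and so did leaving out PF 3 or PF 4 (-0.92 and -0.83) in PF+MBV against PF. The lowest counts of Tlr4 (21) and Cd14 (32) limit the precision of the single ratios.

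The ratio of Nfkbia to Nfkb1, inhibitor to NF-kB subunit, moved less. Its log2 mean was -0.50 ± 0.22 in EtOH+MBV, -0.06 ± 0.36 in EtOH, 0.12 ± 0.16 in PF+MBV and -0.17 ± 0.16 in PF (SD, n = 4 each). Between EtOH and PF the difference was 0.11, with p = 0.686 in the same exact permutation test. Between EtOH+MBV and EtOH it was -0.44 (exact permutation p = 0.143, adjusted 0.163), and between PF+MBV and PF 0.29 (exact permutation p = 0.114, adjusted 0.152), or 0.37 (exact permutation p = 0.0286, unadjusted) without PF 4. EtOH+MBV libraries lay below PF+MBV libraries without overlap, a difference of -0.62 (exact permutation p = 0.0286, adjusted 0.0458).

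**Figure D4:**
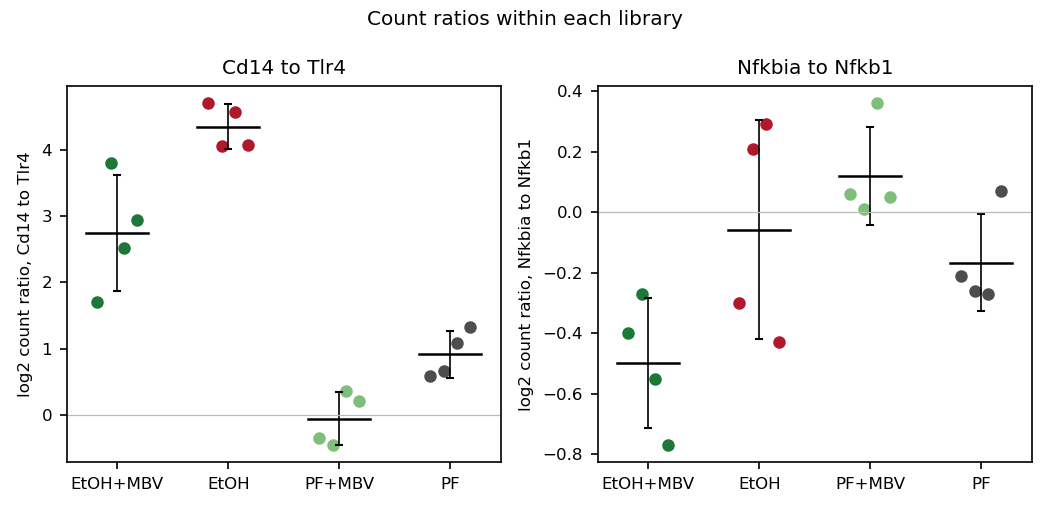
Log2 count ratio of Cd14 to Tlr4 and of Nfkbia to Nfkb1 in every library, with bars for group means and whiskers for the SD (n = 4). The Cd14 to Tlr4 ratio averages 2.74 in EtOH+MBV, 4.35 in EtOH, -0.06 in PF+MBV and 0.91 in PF, without overlap between neighbouring groups.

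Levels of different genes were compared per kilobase of exon. Length was taken over all annotated exons of a gene, so it can exceed that of the transcripts expressed, and the orders are approximate. Lbp led in EtOH+MBV (45.7 CPM per kb), EtOH (40.2) and PF (16.9), and Nfkbia led in PF+MBV (20.7, with Lbp at 18.1). Cd14 ranked 3 of 10 in EtOH+MBV (8.08 CPM per kb), 2 in EtOH (29.2), 7 in PF+MBV (1.24) and 4 in PF (2.56). Tlr4 ranked last in each of the 4 groups, at 0.349, 0.418, 0.41 and 0.398 CPM per kb in EtOH+MBV, EtOH, PF+MBV and PF. Tlr2 and Tnfaip3 filled the places just above it, at 0.459 to 1.85 CPM per kb. The neighbours in these orders were not tested against each other.

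The other genes of the pathway were taken from 6 lists and counted by role, beside the 39.8% of all tested genes called in either direction in EtOH against PF. That share was 2.69% in EtOH+MBV against EtOH, 1.78% in PF+MBV against PF and 4.11% in the interaction. Of the other Toll-like receptors and co-receptors, 12 of 13 were tested. In EtOH against PF, Tlr13 (1.14 ± 0.27), Tlr8 (0.82 ± 0.31) and Cd36 (0.56 ± 0.19) rose and Tlr12 fell by 2.16 ± 0.38, 4.48-fold lower (adjusted p = 0.000402). Tlr13 senses bacterial ribosomal RNA and Tlr12 a protozoan protein in mice. The call of Cd36 was lost without any of 5 libraries (PF 1, PF 2, PF 3, EtOH 3 and EtOH 4), and that of Tlr8 without any library of the 8 other than PF 1 and EtOH 3 (adjusted p of 0.0618 to 0.119). The list's median change was 0.07 in EtOH against PF, and none of the 12 was called by edgeR in EtOH+MBV against EtOH, where the median was -0.44 and Tlr3, the receptor for double-stranded RNA, was at -0.57 ± 0.19 (adjusted p = 0.099, and 0.0469 without EtOH 4).

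Of the adaptors and kinases, 15 of 16 were tested, and 10 rose and none fell in EtOH against PF (median 0.46, against 0.01 over all genes). Ikbke, a kinase of the IKK family, rose by 1.98 ± 0.26, or 3.96-fold (adjusted p = 2.77e-05), at 27.9 to 54.1 CPM in EtOH+MBV, 38.7 to 57.3 CPM in EtOH, 17.1 to 24.3 CPM in PF+MBV and 7.52 to 20.1 CPM in PF. Map3k8, the kinase that links the pathway to ERK, rose by 1.58 ± 0.26 (adjusted p = 0.000216), and Tab2, a partner of the kinase Map3k7, by 0.62 ± 0.12 (adjusted p = 0.00104). In EtOH+MBV against EtOH none was called by edgeR. Ikbke stood at -0.16 ± 0.24, and at 0.01 without EtOH+MBV 1. Map3k8 stood at -0.93 ± 0.25 (adjusted p = 0.0557) and was called by DESeq2 (0.0136) and without EtOH 4 (0.0149). The ubiquitin ligases Peli1 and Traf6 stood at 0.36 ± 0.12 and -0.26 ± 0.10, and Peli1 was called without EtOH 4 (0.0232). All 8 genes of the IKK complex and other Rel factors were tested, and 5 rose in EtOH against PF: Rela (0.76 ± 0.14), Rel (1.36 ± 0.26), Relb (1.36 ± 0.42), Nfkb2 (0.53 ± 0.19) and the kinase Map3k14 (0.85 ± 0.20). Without EtOH 1, Relb (0.91, adjusted p = 0.0755) and Nfkb2 (0.25, adjusted p = 0.164) were not called. The Relb call was also lost without PF 1 or PF 3 (0.0511 and 0.0563), and the Nfkb2 call without PF 1, PF 3 or PF 4 (0.0604 to 0.081). None of the 8 was called by edgeR in EtOH+MBV against EtOH, where Rela stood at 0.01 ± 0.14 and Relb at -1.47 ± 0.43 (adjusted p = 0.0686). Relb was called there by DESeq2 (0.0185), without EtOH 4 (0.0298) and without EtOH+MBV 4 (0.0315).

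Of 24 other inhibitors and feedback genes, 20 were tested. In EtOH against PF 9 were called, a share near that of all tested genes. Of these 7 rose, among them the inhibitor Nfkbib (0.88 ± 0.16, adjusted p = 0.000489) and the Tnfaip3 partners Tnip1 (1.08 ± 0.25) and Tnip2 (0.79 ± 0.16). Without EtOH 1 the change of Tnip1 was 0.65, and it was still called. The 2 that fell, Otulin and Itch, are ubiquitin enzymes and were named after their values were seen. Otulin (-0.29 ± 0.10) lost its call without any library of the 8 other than PF 3 and EtOH 3 (adjusted p of 0.0559 to 0.0972). A fit of those 8 libraries alone gave 4 calls in this list rather than 9. In EtOH+MBV against EtOH 2 fell: Zfp36, which destabilises cytokine mRNA, by 0.82 ± 0.20 (adjusted p = 0.0439), and Zc3h12a, an RNase that cuts cytokine mRNA, by 0.92 ± 0.23 (adjusted p = 0.0468). Zfp36 ran at 64.9 to 101 CPM in EtOH+MBV, 103 to 176 in EtOH, 124 to 205 in PF+MBV and 100 to 149 in PF. Leaving out EtOH 2, EtOH 3, EtOH+MBV 1, EtOH+MBV 2 or EtOH+MBV 3 ended the call of Zfp36 (adjusted p of 0.0674 to 0.13), and any 1 library except EtOH 4 ended that of Zc3h12a (0.0508 to 0.138). The interaction was negative and called for 3 of the 20: Zfp36 (-1.32 ± 0.29, adjusted p = 0.0229), Birc3 (-0.92 ± 0.23, adjusted p = 0.0387) and the phosphatase gene Dusp1 (-1.52 ± 0.38, adjusted p = 0.0382), the last named after its value was seen. These 3 calls were lost without any of 3 (Zfp36), 12 (Birc3) and 9 (Dusp1) of the 16 libraries left out in turn, with adjusted p of at most 0.0566, 0.0823 and 0.0844. For Zfp36 these were PF 1, EtOH+MBV 3 and PF+MBV 1. Birc3 stood at -0.56 ± 0.17 in EtOH+MBV against EtOH (adjusted p = 0.0718), and DESeq2 called it (0.0296), as did the fits without EtOH 4 (0.0185) or EtOH+MBV 1 (0.0469). On the control diet 1 of the 20, Otulin, fell by 0.45 ± 0.10 in PF+MBV against PF (adjusted p = 0.0362), a call lost without any library of the 8 other than PF 2 (0.0518 to 0.119).

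Of 25 inflammatory target genes 12 were tested. The cytokine genes Tnf and Il6 and the nitric oxide synthase gene Nos2 were near the floor of the data, with at most 6, 2 and 3 counts in any library, and are named after their values were seen. With ethanol, 8 rose and 1, Sod2, fell in EtOH against PF (median 0.98). The chemokine Cxcl1 rose by 2.42 ± 0.40, or 5.35-fold (adjusted p = 0.000235), the adhesion gene Icam1 by 1.58 ± 0.21 (adjusted p = 4.36e-05) and Tnfaip2 by 0.89 ± 0.19 (adjusted p = 0.00144). In EtOH+MBV against EtOH the chemokines Cxcl10 (-3.40 ± 0.72, adjusted p = 0.0269) and Ccl5 (-2.91 ± 0.75, adjusted p = 0.049) were called lower. Cxcl10 stood at 0.469 to 1.13 CPM in EtOH+MBV and at 2.27 to 2.82 CPM in 3 EtOH livers, and EtOH 1 held 21.1 CPM. Without EtOH 1 the changes were -1.88 (adjusted p = 0.0523) for Cxcl10 and -1.40 (adjusted p = 0.205) for Ccl5. The Cxcl10 call was also lost without EtOH+MBV 2 or EtOH+MBV 3, and the Ccl5 call without any library other than EtOH 3 and EtOH 4. Limma voom called neither Cxcl10 (adjusted p = 0.0974) nor Ccl5 (adjusted p = 0.12). Ccl5 had 1 to 4 counts per EtOH+MBV library. Cxcl1 was at -1.17 ± 0.38 (adjusted p = 0.096), at -1.46 (adjusted p = 0.0378) without EtOH 1, and was called by DESeq2 (0.038).

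All 8 genes of endotoxin clearance and inactivation were tested. Pltp, a plasma lipid transfer protein that also moves endotoxin between lipoproteins, fell by 2.81 ± 0.20 in EtOH against PF and was 7.01-fold lower (adjusted p = 2.83e-07). The endothelial scavenger receptor Stab1 fell by 0.67 ± 0.15. Alpl, alkaline phosphatase, which can remove phosphate from endotoxin, rose by 1.12 ± 0.21 and the lipid exporter Abca1, named after its value was seen, by 0.86 ± 0.22. Pltp stood at 16.2 to 20.7 CPM in EtOH+MBV, 13 to 19.1 CPM in EtOH, 93 to 114 CPM in PF+MBV and 60.3 to 126 CPM in PF, so the diets did not overlap with or without MBV. The scavenger receptors Stab1 and Msr1 stood at 0.45 ± 0.15 (adjusted p = 0.1) and -0.58 ± 0.25 (adjusted p = 0.189) in EtOH+MBV against EtOH, and neither was called. Stab1 was called without EtOH 4 (0.0471), and Msr1 stood at -0.14 without EtOH 1.

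Over all 16 libraries, the genes with the pattern most like that of Cd14, by the root mean square difference of log2 CPM less its PF mean, among 11779 genes, were Plaur (0.63), Cytip (0.66), Btg2 (0.7), Actg1 (0.72) and Apold1 (0.72). Plaur, the urokinase receptor gene, averaged 2.79 ± 0.827 CPM in EtOH+MBV, 6.92 ± 3.68 in EtOH, 0.694 ± 0.244 in PF+MBV and 0.718 ± 0.347 in PF. The genes nearest to Nfkbia were Cyth1 (0.18), Plekhb2 (0.19), Scpep1 (0.19), Nedd1 (0.21) and Vcl (0.21). Cyth1 averaged 54.9 ± 3.55 CPM in EtOH+MBV, 73.5 ± 7.34 in EtOH, 67.9 ± 5.95 in PF+MBV and 55 ± 3.46 in PF. The points share libraries and depth, and the genes were picked for this likeness, so no test is given.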

How the data were processed

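The authors deposited 1 table of read counts per gene for each of 16 libraries, with no normalization. Per the submitters' processing notes, reads were trimmed (Trimmomatic) and aligned to mm10 (STAR); no version, setting or annotation is given in the sources used here. Counts came from the unstranded column, because 1 of the stranded ones held 50.58% to 51.79% of stranded reads. Rows that name no gene were left out of library sizes: reads without a feature made up 9.397% to 10.87%, ambiguous reads 1.348% to 1.693% and unmapped reads 11.57% to 19.89% of a library. The total per library was 15271344 to 20493181 counts in genes.

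In R 4.3.3, genes were kept by filterByExpr (minimum count 10), scaled by TMM and fitted with edgeR 4.0.16 (quasi-likelihood, 1 mean per group, all 16 libraries). Adjustment was by Benjamini-Hochberg across 12901 genes, with 0.05 as the limit. The SE is the log2 fold change divided by the square root of F, and 95% intervals use the fit's degrees of freedom. Log2 CPM used a prior count of 2. Count ratios had 0.5 added to both counts and were compared by 2-sided exact permutation tests. The fits were also run on simulated data in which all groups shared the same spread per gene. Such data cannot show how the unequal spread between these groups affects the calls. Alternatives were median-ratio size factors, DESeq2 1.42.0, limma voom 3.58.1, no filter, the compared libraries alone and a replicate block. Each library of the compared groups was also left out in turn. Leaving out EtOH 1 and EtOH+MBV 1 together was chosen after seeing the data.

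The 10 genes, the 6 pathway lists and the 6 cell type lists were chosen with earlier results of these data known. All 10 are named, and from each pathway list up to 3 tested genes with the smallest adjusted p in EtOH against PF and up to 3 in EtOH+MBV against EtOH; other genes named were chosen after their values were seen. Coordinates are from GENCODE on GRCm38. Promoters are RefSeq windows on GRCm38.p6, less bases in annotated exons. The result of 1 gene of the clearance list is not reported here.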

Additional observations from a re-analysis of the deposited data

Results flagged for a closer look

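In 6 genes named here the MBV change differed between the diets by the interaction test of edgeR. The interaction was -0.99 for Nfkbia (adjusted p = 0.0137) and -1.74 for Tnfaip3 (adjusted p = 0.0218), with each MBV change below 0 on the ethanol diet and above 0 on the control diet. The other 4 were Zfp36 (-1.32, adjusted p = 0.0229), Birc3 (-0.92, adjusted p = 0.0387), Dusp1 (-1.52, adjusted p = 0.0382) and Cxcl10 (-4.10, adjusted p = 0.0315). Leaving out 1 of the 16 libraries at a time ended the call of Nfkbia in 0 cases, of Tnfaip3 in 1, of Zfp36 in 3, of Birc3 in 12, of Dusp1 in 9 and of Cxcl10 in 9. The Cxcl10 call was also lost with limma voom (-3.77, adjusted p = 0.0817). Cxcl10 was at -2.58 without EtOH 1, which held 21.1 CPM, against 2.27 to 2.82 CPM in the other EtOH libraries.

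A single library lay far from the other 3 of its group in 3 of 48 groups of values, where chance gives about 1 in 20, or 2.4. Tlr2 was at 3.57 CPM in PF 2, against 1.43 to 1.79 CPM in the other PF libraries. The count ratio of Nfkbia to Nfkb1 was 1.29 in PF+MBV 3, against 1.01 to 1.04 in the other PF+MBV libraries, and 1.05 in PF 4, against 0.827 to 0.864 in the other PF libraries.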

How the results depend on the processing

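The 6 calls of EtOH against PF held under every alternative run. The counts of calls in the MBV comparisons did not. In EtOH+MBV against EtOH 347 genes were called, against 896 by DESeq2, 0 in the 8 libraries alone, 205 with the replicate block and 180 without EtOH 1 and EtOH+MBV 1, and 3 of the 10 genes became 0 in the 8 libraries alone. In PF+MBV against PF 230 genes were called, against 649 by DESeq2, 1119 in the 8 libraries alone and 1022 without EtOH 1 and EtOH+MBV 1, and of the 10 genes 1, 3 and 3 were called under these. In the interaction 530 genes became 1097 by DESeq2 and 887 without the 2 libraries. In EtOH+MBV against PF 3773 became 5689 under an alternative that is not named here. The cause was not tested. Leaving out 1 library gave 4268 to 5069 genes called in EtOH against PF, 8 to 1169 in EtOH+MBV against EtOH, 45 to 689 in PF+MBV against PF, 3412 to 5334 in EtOH+MBV against PF+MBV, 2598 to 4626 in EtOH+MBV against PF and 168 to 1088 in the interaction. Of the 10 genes it gave 6 to 7, 0 to 3, 0 to 0, 2 to 4, 3 to 4 and 1 to 3. The Cd14 to Tlr4 difference ran over 3.32 to 3.58 (EtOH against PF), -1.96 to -1.26 (EtOH+MBV against EtOH), -1.11 to -0.83 (PF+MBV against PF) and 2.45 to 3.15 (EtOH+MBV against PF+MBV), and that of Nfkbia to Nfkb1 over 0 to 0.23, -0.56 to -0.33, 0.21 to 0.37 and -0.69 to -0.53. Where the ratio calls were lost, the exact permutation p was 0.0571 with fewer libraries. Only libraries of the compared groups were left out singly, although the main fit used all 16. For PF+MBV against PF, EtOH 1 and EtOH+MBV 1 were thus left out only together, with the calls given above.

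The labels' replicate numbers did not pair the libraries: of 24 same-numbered pairs, 3 had deviations correlated above 0.1 (range -0.12 to 0.17), and 2 of 16 libraries correlated best with their own number. With the replicate block the ratio differences stayed at 3.44, -1.61, -0.97 and 2.80 for Cd14 to Tlr4 and -0.62 for Nfkbia to Nfkb1 in EtOH+MBV against PF+MBV, with an exact sign-flip p of 0.125, the smallest for 4 pairs. The block ended the calls of Nfkb1 in EtOH+MBV against PF (adjusted p = 0.0647), of Zfp36 (0.0612), Zc3h12a (0.0529) and Ccl5 (0.0542) in EtOH+MBV against EtOH, of Tlr8 in EtOH against PF (0.07) and of Otulin in PF+MBV against PF (0.0501), and Birc3 was called under it in EtOH+MBV against EtOH (0.0426).

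Sign changes were confined, among the 10 genes and the ratios, to uncalled values near 0. With 1 library left out, Tlr2 ran over -0.39 to 0.11 in EtOH+MBV against EtOH, -0.11 to 0.4 in PF+MBV against PF (also -0.05, -0.04 and -0.01) and -0.63 to 0.07 in the interaction, Tlr4 over -0.13 to 0.23 in EtOH against PF (also -0.09) and -0.13 to 0.19 in PF+MBV against PF (also -0.12), Lbp over 0 to 0.21 in PF+MBV against PF and -0.02 to 0.32 in the interaction (also -0.01), and in EtOH+MBV against PF Myd88 over -0.19 to 0.04 and Nfkbia over -0.07 to 0.06 (also 0.05). Without EtOH 1 and EtOH+MBV 1, Tlr4 was at -0.13 in EtOH against PF, Tlr2 at 0.12 in EtOH+MBV against EtOH and 0.08 in the interaction, Nfkbia at 0.06 in EtOH+MBV against PF, and Nfkb1 at 0.01 in EtOH+MBV against EtOH, where its lowest value was -0.25. Among other named genes in EtOH+MBV against EtOH, Rela was at -0.03 with voom, at -0.01 with the replicate block and over -0.2 to 0.11 (also -0.02) with 1 library left out, and Ikbke over -0.27 to 0.01, and at 0.03 without both libraries. Depth limits Tlr4, Tlr2 and Ly96, which had as few as 21 to 25 counts in a library.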
